A study of Homo sapiens with 66 samples.

Results

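The genes described here encode interferon (IFN) ligands, the receptor chains and kinases that read type I IFN, and the transcription factor complex that this receptor switches on. They were IFNB1 and IFNL1 (ligands), IFNAR1 and IFNAR2 (receptor chains), JAK1 and TYK2 (kinases), STAT2 and IRF9 (subunits of the complex ISGF3) and SOCS1 (feedback inhibitor). The 9 genes were taken by Ensembl identifier, with the version removed, from 57820 genes counted, and all 9 were found in both deposited gene tables. RNA-seq with ribosomal RNA removed was read from THP-1, a human monocytic leukemia line that carried a Cas9 transgene and received guide RNAs (gRNAs) by nucleofection. Study 1 held 48 libraries of a STING-deficient clone, 3 per group: nontarget (CTRL), GFP, ADAR, hnRNPC and ADAR+hnRNPC gRNAs at 3, 4 or 5 days, plus CTRL cells given recombinant IFN-α for the day before harvest on day 4. Study 2 held 18 libraries of a wild-type clone on day 4, 2 per group, made with other gRNAs against the same targets: total RNA and cytosolic RNA (the part that digitonin releases) from CTRL cells and from hnRNPC-, ADAR- and ADAR+hnRNPC-targeted cells, and nuclear RNA of hnRNPC-targeted cells, a fraction that also held mitochondria. ADAR is the enzyme that edits adenosine to inosine in double-stranded RNA, and hnRNPC is a nuclear protein that binds uridine-rich stretches of unspliced RNA. Each study was 1 clone, targeted cells were a pool in which some cells may have kept the gene, and the labels do not say that replicates were separate cultures, though the study describes its data as independent experiments. The p-values measure the spread between these libraries only. In bulk RNA, fewer cells that express a gene and less of its RNA per cell cannot be told apart.

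IFN-β, the product of IFNB1, is secreted once a cell's nucleic acid sensors have been triggered, and it binds the receptor made of IFNAR1 and IFNAR2. IFN-λ1, the product of IFNL1, belongs to the type III family and uses a separate receptor that shares a chain with the interleukin-10 receptor. TYK2 sits on IFNAR1 and JAK1 on IFNAR2, and the activated kinases phosphorylate STAT proteins, so that ISGF3, which holds STAT2 and the DNA-binding subunit IRF9, enters the nucleus. ISGF3 switches on IFN-stimulated genes through the interferon-stimulated response element (ISRE), while STAT dimers bind the gamma-activated sequence (GAS). SOCS1 blocks the kinases and closes the loop.

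The promoters shown are those of members with a match to the core letters of these response elements. Whether a match works as a response element was not tested. RefSeq promoter entries, on build GRCh38.p14, were held for 8 of the 9 members, and the 250 bases upstream of the start are printed for 4 of them, on the strand of the gene, with matches to an ISRE core (GAAANNGAAA, either strand) or a GAS core (TTCNNNGAA, the same on either strand) in capitals. They lie at chr9:21077943-21078192 on the minus strand (IFNB1), chr19:39296157-39296406 on the plus strand (IFNL1), chr14:24161015-24161264 on the plus strand (IRF9) and chr16:11256205-11256454 on the minus strand (SOCS1).
IFNB1: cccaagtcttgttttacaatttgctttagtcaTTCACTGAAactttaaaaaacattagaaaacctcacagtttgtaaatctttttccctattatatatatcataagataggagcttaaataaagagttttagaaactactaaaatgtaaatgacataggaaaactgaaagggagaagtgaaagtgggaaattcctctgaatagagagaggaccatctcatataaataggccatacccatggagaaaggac
IFNL1: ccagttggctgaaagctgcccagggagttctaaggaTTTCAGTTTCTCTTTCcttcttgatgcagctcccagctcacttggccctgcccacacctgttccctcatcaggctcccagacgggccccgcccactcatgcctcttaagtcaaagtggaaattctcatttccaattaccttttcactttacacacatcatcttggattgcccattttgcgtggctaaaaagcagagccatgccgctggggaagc
IRF9: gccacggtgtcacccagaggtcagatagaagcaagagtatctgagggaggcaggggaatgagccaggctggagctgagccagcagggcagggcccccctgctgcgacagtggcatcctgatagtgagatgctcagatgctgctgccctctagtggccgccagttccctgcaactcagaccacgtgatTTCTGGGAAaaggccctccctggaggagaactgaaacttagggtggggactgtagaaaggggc
SOCS1: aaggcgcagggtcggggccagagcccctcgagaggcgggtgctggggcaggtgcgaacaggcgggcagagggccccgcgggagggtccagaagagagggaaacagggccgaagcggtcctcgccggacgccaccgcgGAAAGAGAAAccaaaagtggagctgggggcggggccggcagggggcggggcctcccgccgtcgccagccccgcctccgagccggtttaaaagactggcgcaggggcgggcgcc
IFNL1 held ISRE core matches at -214 and -208 that overlap each other, counted from its start, and SOCS1 held a match at -113. The GAS core was matched at -218 in IFNB1 and at -63 in IRF9. Neither core was matched in the promoters of IFNAR1, JAK1, TYK2 or STAT2, which says only that these letters are not in these windows. Matches were sought in the 250 bases before and the 50 bases after each start. Of 35116 promoters searched in this way, 3.57% held the ISRE core and 7.66% the GAS core.

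The libraries held 95107690 to 152829008 reads counted in genes in study 1 and 49666958 to 73873756 in study 2. CPM values are read counts scaled to library size, after trimmed mean of M-values (TMM) scaling. HNRNPC RNA was at 294 to 417 CPM in the 18 libraries of study 1 with the hnRNPC gRNA and at 725 to 869 CPM in the 30 without, and in study 2 it was at 378 to 493 against 581 to 909.7 CPM in total RNA and at 455 to 701 against 869.7 to 1025 CPM in cytosolic RNA. ADAR, itself an IFN-stimulated gene, was at 349 to 396 CPM in ADAR-targeted and at 364 to 436 CPM in CTRL cells of study 1, which overlap, and at 448 to 603 against 858 to 1166 CPM in total and cytosolic RNA of study 2, which do not. The editing values given last for study 1 also bear on the ADAR gRNA, at sites chosen by their editing in samples without ADAR targeting. TMEM173, which encodes STING, still gave 105 to 213 CPM in the STING-deficient clone. Summed CPM of 8 monocytic markers was 318 to 854 in study 1 and 209 to 579.6 in study 2, spread unevenly. LYZ held 69.6 to 598 CPM in study 1 and 22.4 to 201 in study 2. CD14 held 0.0991 to 3.93 and 0.114 to 2.6 CPM, and CEBPA 0.927 to 8.22 and 0.272 to 1.43 CPM. For other cell types, 4 of the 5 marker lists, those of T cells, epithelium, fibroblasts and erythroid cells, each summed to at most 0.816 CPM in any library.

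IFNB1 RNA was close to absent in resting cells and rose in ADAR+hnRNPC-targeted cells between day 3 and day 5. The gene (ENSG00000171855) has a single exon on chromosome 9 of GRCh37, from 21077103 to 21077941 on the minus strand. Its level was too low for the filter of the gene model, so raw counts are given. CTRL cells held 0, 0 and 0 counts at day 3, then 1, 7 and 0 at day 4 and then 4, 2 and 8 at day 5. ADAR+hnRNPC-targeted cells held 4, 1 and 4 counts at day 3, then 89, 91 and 157 at day 4 and then 1478, 1623 and 3517 at day 5. On days 4 and 5 each of these libraries lay above all 12 other gRNA libraries of its day. The mean CPM was 0.908 ± 0.291 (SD, n = 3) on day 4 and 17.5 ± 7.92 on day 5, against 0.0188 ± 0.025 and 0.0333 ± 0.0202 in CTRL cells. An exact two-sided permutation test of the 3 ADAR+hnRNPC libraries against the other 12 gave p = 0.0022 on both days, the smallest p that its 455 assignments allow. At day 3 the same permutation test gave p = 0.0857, where libraries overlapped. Without ADAR+hnRNPC replicate 2 the exact permutation test of day 3 gave p = 0.044.

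IFNB1 in cells that had received a single targeting gRNA stayed low. ADAR-targeted cells held 0, 0 and 0 counts at day 3, then 5, 8 and 10 at day 4 and then 21, 6 and 38 at day 5. hnRNPC-targeted cells held 1, 3 and 7, then 0, 7 and 3, then 1, 10 and 6 counts. The highest of these single-target libraries, with 38 counts, was below the lowest ADAR+hnRNPC library of day 4, with 89. GFP-targeted cells held at most 8 counts and IFN-α–treated cells 0, 0 and 5, the same range as the 0 to 7 counts of CTRL cells of that day.

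A model without the low-count filter gave sizes for IFNB1 (edgeR's quasi-likelihood test, Benjamini-Hochberg adjustment over 45744 genes with a count, or those with a count in the day's 12 libraries for the interaction). A gene was called where its absolute log2 fold change was at least 1 and its adjusted p at most 0.05. IFNB1 was higher than in CTRL cells by 5.46 ± 0.401 log2 (SE, adjusted p = 8.42e-40) in ADAR+hnRNPC-targeted cells on day 4 and by 8.98 ± 0.383 (adjusted p = 2.06e-119) on day 5, a 506-fold difference. ADAR targeting alone raised it by 2.55 ± 0.412 (adjusted p = 2.92e-07) on day 5, and hnRNPC targeting alone gave 0.20 ± 0.508 (adjusted p = 0.943) on that day. The interaction, the log2 excess in ADAR+hnRNPC-targeted cells over the sum of the single responses, was 3.57 ± 0.971 (adjusted p = 0.0139) on day 4 and 6.24 ± 0.611 (adjusted p = 9.86e-18) on day 5 for IFNB1, called by adjusted p alone. Over all genes with a count, 4.7% were called in ADAR+hnRNPC-targeted cells on day 4 and 11.6% on day 5, 0.284% in ADAR- and 6.75% in hnRNPC-targeted cells on day 5, 1.03% in IFN-α–treated cells, and 2.66% and 15.8% in the interaction on days 4 and 5. On day 3 the CTRL libraries were all at 0, so a fitted fold is no measure there. Against a floor of 3 counts over the CTRL group, IFNB1 was 2.75-fold higher in ADAR+hnRNPC- and 3.04-fold higher in hnRNPC-targeted cells on day 3. The counting error of the targeted groups, which held few counts, was left out, so these are not lower bounds.

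**Figure D1:**
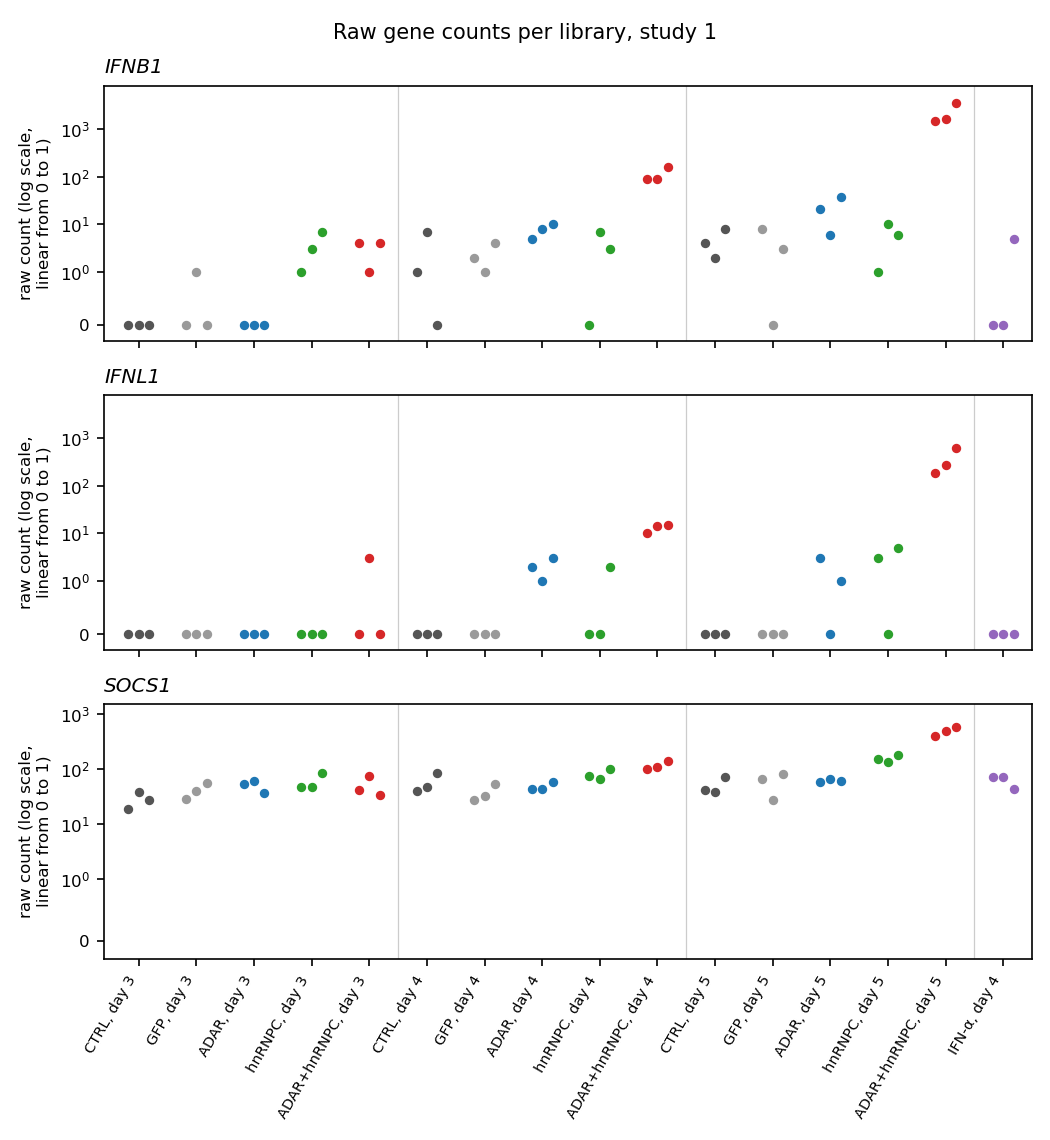
Raw counts of IFNB1, IFNL1 and SOCS1 in each library of study 1 (log axis, linear from 0 to 1), by gRNA and day with IFN-α–treated cells at the right. The 3 ADAR+hnRNPC libraries of day 5 (red) held 1478 to 3517 counts of IFNB1, 186 to 608 of IFNL1 and 394 to 577 of SOCS1 and lay above every other library of that day.

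IFNL1 was likewise highest in ADAR+hnRNPC-targeted cells, at a lower level than IFNB1. The gene (ENSG00000182393) lies on chromosome 19 of GRCh37, from 39787047 to 39789313 on the plus strand. It had no count in any CTRL, GFP or IFN-α library of study 1. ADAR+hnRNPC-targeted cells held 0, 3 and 0 counts at day 3, then 10, 14 and 15 at day 4 and then 186, 273 and 608 at day 5. Single-target cells reached at most 5 counts, in an hnRNPC library of day 5. ADAR+hnRNPC libraries did not overlap the other 12 libraries of the day on days 4 and 5 (exact two-sided permutation test, p = 0.0022 on each, the smallest possible) and did on day 3 (p = 0.2). With the CTRL group of 0 counts set to 3 counts, IFNL1 was at least 14.3-fold higher on day 4 and at least 398-fold higher on day 5. The same floor gave 1.73-fold in ADAR- and 2.53-fold in hnRNPC-targeted cells on day 5, from 4 and 8 counts over 3 libraries. The counting error of those few counts was left out, so these are not lower bounds.

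The other IFN genes contributed few reads. Of 19 further ligand genes listed (13 IFNA genes, IFNW1, IFNE, IFNK, IFNL2, IFNL3 and IFNG), 8 had no count in study 1 and 16 had at most 10 counts in every library, and none passed the low-count filter. ADAR+hnRNPC-targeted cells of day 5 held 5, 4 and 19 counts of IFNL2, 3, 5 and 35 of IFNL3, 0, 10 and 18 of IFNW1, and 0, 9 and 3 of IFNA14. IFNL2 and IFNL3 are near-identical copies, and only uniquely mapped reads were counted, so both counts are uncertain.

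IFNAR1, IFNAR2, JAK1 and TYK2, the receptor chains and kinases, were present throughout and moved little. On day 4 in CTRL cells of study 1, levels per kilobase of exon were 14.9 ± 1.34 CPM for TYK2 (SD, n = 3), 10.8 ± 0.517 for JAK1, 9.92 ± 0.924 for STAT2, 2.91 ± 0.2 for IFNAR1 and 1.01 ± 0.0721 for IFNAR2. IRF9 followed at 0.257 ± 0.0744 CPM per kilobase, SOCS1 at 0.234 ± 0.0706 and IFNB1 at 0.0224 ± 0.0299. JAK1 and STAT2, and IRF9 and SOCS1, did not differ beyond their SDs in this order. Over the 48 libraries IFNAR1 ranged from 39.3 to 57.4 CPM, IFNAR2 from 11.1 to 17.9, JAK1 from 119 to 172 and TYK2 from 79.4 to 177. Exon lengths came from an annotation newer than that of the counts, and 27.7% of the IFNAR2 exon bases and 7.33% of those of JAK1 are also exons of other genes.

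None of these 4 genes was called in any comparison of study 1. Their 60 log2 fold changes, over 15 comparisons, ran from -0.55 to 0.31, and 15 of them had an adjusted p of at most 0.05. IFN-α–treated cells held 40.4, 42.1 and 52.2 CPM of IFNAR1, within or beside the 43, 44.6 and 49.1 of CTRL cells. TYK2 moved the most, in hnRNPC-targeted cells. It was at 146, 149 and 149 CPM in CTRL and at 112, 108 and 98.8 CPM in hnRNPC-targeted cells on day 3, and at 139, 117 and 124 against 93.9, 79.4 and 87.2 CPM on day 4. These groups did not overlap, and the log2 fold changes of TYK2 were -0.48 ± 0.0876 (edgeR adjusted p = 4.05e-05) and -0.55 ± 0.0877 (edgeR adjusted p = 2.59e-06), under the size needed for a call. On day 5 TYK2 was at 119, 105 and 118 CPM in CTRL cells and higher both in ADAR-targeted cells, at 140.1, 131 and 151 CPM, and in ADAR+hnRNPC-targeted cells, at 138, 143 and 144 CPM. The log2 fold changes were 0.31 ± 0.0875 in each (edgeR adjusted p = 0.0254 and 0.00166). GFP-targeted cells of that day, at 143, 119 and 133 CPM, gave 0.21 ± 0.0875 (edgeR adjusted p = 0.132).

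**Figure D2:**
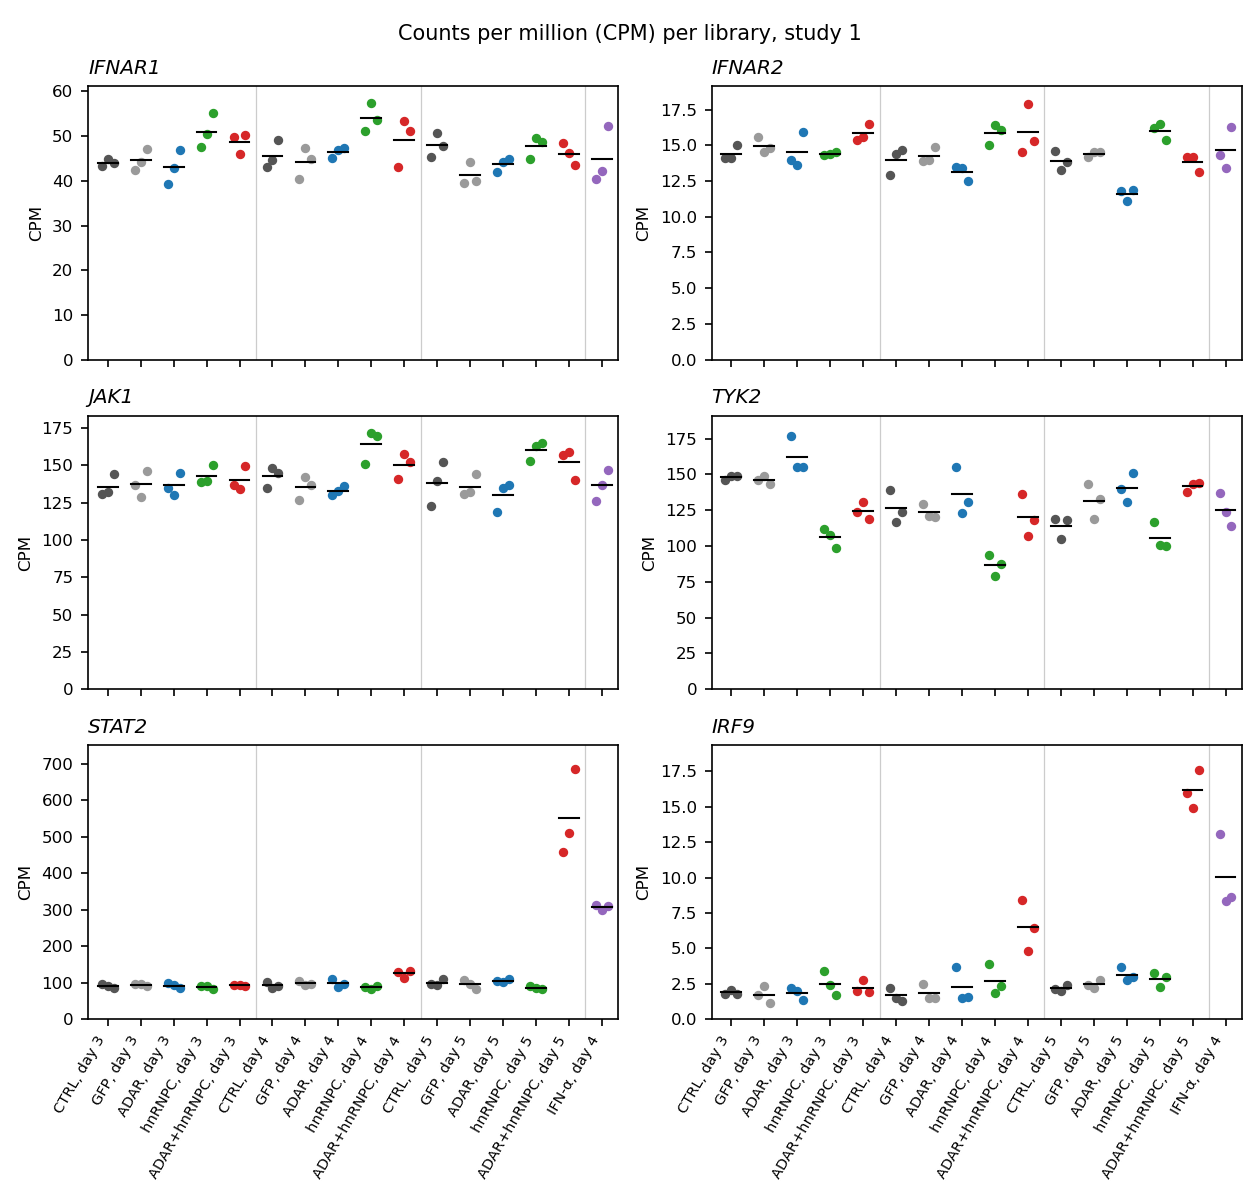
CPM of the 6 members that passed the low-count filter, per library of study 1 (points) with group means (lines), by gRNA and day. IFNAR1, IFNAR2 and JAK1 stay within narrow bands, and TYK2 is lower in hnRNPC-targeted than in CTRL cells on days 3 and 4. STAT2 and IRF9 rise to 457 to 685 and 14.9 to 17.6 CPM in ADAR+hnRNPC-targeted cells of day 5.

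STAT2 and IRF9, the ISGF3 subunits, rose in IFN-α–treated cells. STAT2 (ENSG00000170581, chromosome 12 of GRCh37, from 56735381 to 56753987, minus strand) was at 102, 85.8 and 89.2 CPM in CTRL cells of day 4 and at 312, 299 and 310.3 CPM after IFN-α. IRF9 (ENSG00000213928, chromosome 14, from 24630443 to 24637252, plus strand) was at 2.21, 1.47 and 1.3 CPM and at 13.1, 8.36 and 8.64 CPM. Neither gene's groups overlapped. The log2 fold change was 1.73 ± 0.101 for STAT2 (edgeR adjusted p = 5.51e-17), which is 3.33-fold, and 2.60 ± 0.313 for IRF9 (edgeR adjusted p = 3.88e-08), which is 6.07-fold. Of the 6 members tested, these 2 were called, against 1.32% of 13193 genes tested. The median log2 fold change of the 6 was 0.02, as over all genes tested (0.02).

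In ADAR+hnRNPC-targeted cells IRF9 was called from day 4 and STAT2 from day 5. On day 3 STAT2 was at 94.5, 93.4 and 90.7 CPM and IRF9 at 1.98, 2.75 and 1.92 CPM, and neither was called (0 of 6 members, 1.17% of genes). On day 4 IRF9 reached 8.41, 4.79 and 6.4 CPM, 1.98 ± 0.309 log2 above CTRL (edgeR adjusted p = 1.06e-06), and was the 1 member of 6 called (4.71% of genes). STAT2 was at 129.8, 113 and 132 CPM on day 4, above every other gRNA library of that day, with a log2 fold change of 0.43 ± 0.0984 (edgeR adjusted p = 0.000285) that was below the size of a call. On day 5 STAT2 stood at 457, 509.7 and 685 CPM against 94.7, 93 and 109.6 CPM in CTRL cells, and IRF9 at 16, 14.9 and 17.6 against 2.14, 1.98 and 2.43 CPM. No library of 1 group reached the other. The log2 fold changes were 2.47 ± 0.103 for STAT2 (edgeR adjusted p = 3.09e-22) and 2.88 ± 0.312 for IRF9 (edgeR adjusted p = 1.76e-10), and 2 of 6 members were called, as were 15.6% of genes. The median log2 fold change of the 6 members was 0.22, beside -0.04 over all genes. Between days 3 and 4 IRF9 rose by 1.56 ± 0.303 log2 in ADAR+hnRNPC-targeted cells (edgeR adjusted p = 0.000117), and it was the 1 member called, with 1.27% of genes. Between days 4 and 5 STAT2 rose by 2.14 ± 0.102 (edgeR adjusted p = 6.09e-20) and IRF9 by 1.30 ± 0.293 (edgeR adjusted p = 0.000298), 2 of 6 members, with 3.68% of genes.

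Single targeting left both ISGF3 subunits uncalled in study 1. STAT2 ran from 81.2 to 111 CPM over ADAR- and hnRNPC-targeted cells of all days and from 83.5 to 109.6 CPM over CTRL and GFP libraries. IRF9 in hnRNPC-targeted cells was at 3.42, 2.38 and 1.71 CPM at day 3, then 3.88, 1.84 and 2.34 at day 4 and then 3.23, 2.28 and 2.94 at day 5, with log2 fold changes of 0.42 ± 0.306, 0.70 ± 0.305 and 0.36 ± 0.301 and the smallest edgeR adjusted p at 0.0531. ADAR-targeted cells held 2.22, 2 and 1.32, then 3.7, 1.51 and 1.57, then 3.65, 2.79 and 2.98 CPM of IRF9. On day 5 the ADAR libraries lay above the CTRL libraries, with a log2 fold change of 0.52 ± 0.302 (edgeR adjusted p = 0.266). No member that passed the low-count filter was called in ADAR-targeted cells (0%, 0.0682% and 0.273% of genes by day) or in hnRNPC-targeted cells (1.04%, 3.22% and 7.72%). None of them was called in GFP-targeted cells (0.0227%, 0% and 0.212%). Of the 17 gene comparisons of both studies without such a member called, 11 had 1 or more at an unadjusted p under 0.05. In those 17 comparisons limma-voom called a member in 0 and DESeq2 in 1, the interaction of day 4. Over all genes limma-voom also called 0 in ADAR-targeted cells of day 3, in GFP-targeted cells of day 4 and in the interaction of day 3, where DESeq2 called 0, 1 and 28.

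The response to both gRNAs together exceeded the sum of the single responses on day 5. The interaction was 2.60 ± 0.167 log2 for STAT2 (edgeR adjusted p = 3.84e-08) and 2.00 ± 0.2 for IRF9 (edgeR adjusted p = 3.08e-06), in a model of the 12 libraries of that day and called by adjusted p alone. These were 2 of 6 members, where 48.4% of genes were called. On day 4 the interaction was 0.41 ± 0.13 for STAT2 (edgeR adjusted p = 0.0893) and 0.83 ± 0.518 for IRF9 (edgeR adjusted p = 0.372), 0 of 6 members against 4.6% of genes. The STAT2 value passed in the model of all 48 libraries (adjusted p = 0.0476), by DESeq2 (adjusted p = 0.0239) and without ADAR replicate 1 of that day (0.51, adjusted p = 0.0278). With a replicate block, a setting given at the end, STAT2, IRF9 and TYK2 were called. On day 3 it was 0.06 ± 0.0868 for STAT2 and -0.15 ± 0.356 for IRF9, with 0 of 6 members and 0% of genes called.

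**Figure D3:**
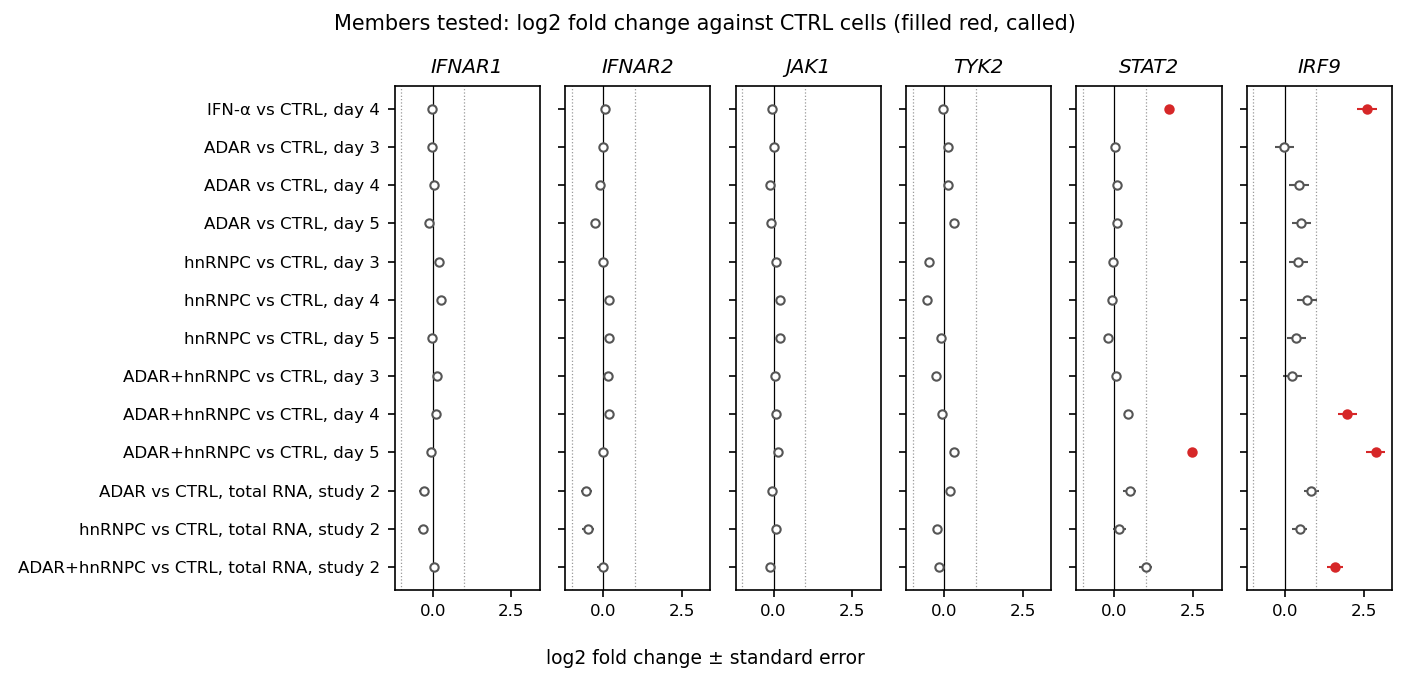
Log2 fold change against CTRL cells with its standard error (points and bars) for the 6 members tested, in study 1 by day and in total RNA of study 2. Filled red points passed the call (dotted lines, log2 fold change of 1 and -1): STAT2 and IRF9 after IFN-α and with both gRNAs at day 5, and IRF9 also at day 4 and in study 2.

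Counts of IRF9 can hold, or miss, reads that fall on bases shared with neighbours. A protein-coding gene annotated as reading through the locus (ENSG00000259529) shares 1544 exon bases with IRF9 on the same strand, 23.9% of the IRF9 exon bases. It moved with IRF9, from 0.961, 0.517 and 0.85 CPM in CTRL to 4.04, 3.09 and 4.9 CPM with both gRNAs at day 5. Its part in the IRF9 values was not tested. Over the 48 libraries of study 1, the genes with log2 CPM most like IRF9 were REC8 (Pearson r = 0.956), TRIM22 (0.933) and OASL (0.933), and those most like STAT2 were SHFL (0.991), PLSCR1 (0.986) and DHX58 (0.985). The libraries of these correlations share groups, so r describes the pattern over groups. REC8, a meiotic cohesin subunit, starts 3809 bases after the end of IRF9 on the same strand.

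SOCS1 rose in ADAR+hnRNPC-targeted cells, and also with the hnRNPC gRNA alone. The gene (ENSG00000185338, chromosome 16 of GRCh37, from 11348274 to 11350061, minus strand) lay under the low-count filter at 0.17 to 4.37 CPM. CTRL cells held 41, 39 and 73 counts on day 5, ADAR-targeted cells 58, 66 and 61, hnRNPC-targeted cells 150, 135 and 182, and ADAR+hnRNPC-targeted cells 394, 484 and 577. The hnRNPC libraries lay between the ADAR+hnRNPC libraries and all others of that day. In CPM, ADAR+hnRNPC-targeted cells were at 3.89 ± 0.468 (SD, n = 3) on day 5 and 0.948 ± 0.144 on day 4, above the other 12 libraries on each day (exact two-sided permutation test chosen after the data were seen, p = 0.0022 each, the smallest possible), and at 0.411 ± 0.174 on day 3 (p = 0.741). Without the low-count filter, SOCS1 was called higher than in CTRL cells by 1.18 ± 0.316 log2 on day 4 (edgeR adjusted p = 0.00168) and by 3.41 ± 0.331 on day 5 (edgeR adjusted p = 1.41e-23) in ADAR+hnRNPC-targeted cells, and by 1.55 ± 0.318 on day 5 in hnRNPC-targeted cells (edgeR adjusted p = 1.14e-05). The SOCS1 interaction was 0.82 ± 0.473 on day 4 (edgeR adjusted p = 0.578) and 1.21 ± 0.32 on day 5 (edgeR adjusted p = 0.00166). IFN-α–treated cells held 72, 72 and 44 counts against 40, 48 and 84 in CTRL cells of day 4, which overlap, with a log2 fold change of 0.47 ± 0.321 (edgeR adjusted p = 0.613).

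Other genes of the pathway were counted in 3 lists. Of the other receptor chains, IFNGR1, IFNGR2 and IL10RB passed the filter and IFNLR1 did not, and 0 of 3 were called in IFN-α–treated cells or in ADAR+hnRNPC-targeted cells of day 5. Of the other Janus kinases and STATs, 6 of 7 were tested: STAT4 was called higher after IFN-α (1.07 ± 0.16 log2, edgeR adjusted p = 3.64e-06), and STAT4 (2.41 ± 0.163, adjusted p = 5.8e-16) and JAK2 (1.37 ± 0.0601, adjusted p = 1.36e-21) in ADAR+hnRNPC-targeted cells of day 5. Of 12 negative regulators, USP18, the protease that also blocks IFNAR2, was called after IFN-α (4.87 ± 0.213 log2, edgeR adjusted p = 5.38e-21). In ADAR+hnRNPC-targeted cells of day 5, USP18 (6.27 ± 0.226 log2, edgeR adjusted p = 3.16e-24), the phosphatase gene PTPN6 (1.20 ± 0.119, adjusted p = 1.66e-11) and SOCS3 (1.05 ± 0.226, adjusted p = 8.15e-05) were called. No gene of these lists was called lower in either comparison. Over all genes tested, 1.32% were called after IFN-α and 15.6% with both gRNAs at day 5. Median log2 fold changes were 0.07 for receptor chains, 0.23 for kinases and STATs and 0.03 for negative regulators after IFN-α, and 0.13, 0.91 and 0.10 with both gRNAs at day 5, beside 0.02 and -0.04 over all genes tested. PTPN6 was also higher in hnRNPC-targeted cells of day 5, by 1.39 ± 0.119 (edgeR adjusted p = 1.25e-12), where 7.72% of all genes tested were called.

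Reads in deposited introns of STAT2 and IRF9 rose with the genes. The deposited introns were the parts of a gene outside the exons of its principal transcripts, and of 105 inside members 14 passed the filter: 4 of TYK2, 3 of JAK1, 3 of STAT2, 2 of IRF9 and 2 of IFNAR2. In IFN-α–treated cells 5 of 14 were called (0.844% of introns tested), and at day 5 with both gRNAs the same 5 (13.5%): introns 7, 9 and 25 of STAT2 and introns 6 and 7 of IRF9. The filter, an average log2 CPM of 1, was taken over all 48 libraries, those of the responding groups included. STAT2 intron 9 and IRF9 introns 6 and 7 had means of 1.87, 1.17 and 1.12 CPM in CTRL cells of day 5, below that level. They may have entered only through the groups where they were high, so their calls are not free of the filter. STAT2 intron 25 (chromosome 12, from 56735381 to 56736493) was at 18.5, 18.6 and 20.8 CPM in CTRL and at 78.7, 84.3 and 117 CPM in ADAR+hnRNPC-targeted cells, with a log2 fold change of 2.27 ± 0.114 (edgeR adjusted p = 1.04e-18) beside 2.47 for the gene. IRF9 intron 7 (chromosome 14, from 24634165 to 24635055) was at 1.06, 0.977 and 1.31 against 10.6, 11.2 and 11.3 CPM, with 3.30 ± 0.339 (edgeR adjusted p = 2.79e-10) beside 2.88 for the gene. In neither case did the groups overlap. STAT2 intron 7 after IFN-α was not called without CTRL replicate 2 of day 4 (1.41), nor intron 9 without CTRL replicate 3 (1.41), against 1.67 and 1.62 in all libraries. In the newer annotation STAT2 intron 25 is untranslated region over its whole length. STAT2 intron 7 and IRF9 introns 6 and 7 hold only coding and untranslated bases of some transcripts, and STAT2 intron 9 holds such bases in part. Both IRF9 introns also lie in the read-through gene. Reads in the 5 called introns can therefore be reads of exons. None of the 14 was called in ADAR- (0% of introns tested, by edgeR and by limma-voom, with IRF9 intron 7 at an unadjusted p under 0.05) or hnRNPC-targeted cells (6.36%) of day 5.

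Editing cluster regions (ECRs), windows around clusters of editing sites that the study found in its own RNA-seq data, were counted in IFNAR1, IFNAR2, TYK2 and STAT2. Of the 3 that lie inside a member, STAT2 ECR 1 (chromosome 12, from 56745803 to 56747995, within STAT2 intron 9) was called in IFN-α–treated cells (1.55 ± 0.396 log2, edgeR adjusted p = 0.00567, 1 of 3 with 0.87% of ECRs called) and at day 5 with both gRNAs (2.02 ± 0.394, edgeR adjusted p = 2.79e-05, 1 of 3 with 16.7% called). Its level was 1.3, 0.765 and 1.31 CPM in CTRL and 3.33, 4.04 and 6.31 CPM in ADAR+hnRNPC-targeted cells. The filter of the ECRs was also an average over all 48 libraries, those of the responding groups included. IFNAR1 ECR 1 and TYK2 ECR 1 were not called, and none of the 3 was called with the ADAR gRNA (0.0791%) or the hnRNPC gRNA (9.3%) alone.

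The share of edited reads at these ECRs fell with the ADAR gRNA. At day 5, 46 of 54 sites of IFNAR2 ECR 1 (chromosome 21, from 34635183 to 34638261, reaching past the end of the gene), 21 of 73 sites of TYK2 ECR 1 (chromosome 19, from 10472616 to 10476037) and 9 of 79 sites of TYK2 ECR 2 (chromosome 19, from 10461055 to 10463912, likewise reaching past the gene) had at least 10 reads in all 12 libraries, and the ECRs of IFNAR1 and STAT2 had 0 such sites. IFNAR2 ECR 1 was edited in 8.99, 8.21 and 9.41% of reads in CTRL, 11.4, 10.5 and 9.7% in hnRNPC-, 2.94, 5.2 and 4.09% in ADAR- and 5.42, 5.85 and 5.23% in ADAR+hnRNPC-targeted cells, from 2232 to 4283 reads per library. The 6 libraries with the ADAR gRNA did not overlap the 6 without. Their means were 4.79% ± 1.07 and 9.71% ± 1.14 (SD, n = 6). For TYK2 ECR 1 the means were 1.39% ± 0.671 and 3.47% ± 0.751, from 313 to 879 reads per library, and for TYK2 ECR 2 they were 3.12% ± 1.6 and 7.25% ± 1.06, from 119 to 360 reads. Each difference had p = 0.00216 in an exact two-sided permutation test, adjusted 0.00216 over the 3 ECRs and the smallest p that 924 assignments allow. By the study's methods, sites were kept by their editing in samples of these data without ADAR targeting. That choice favours a lower share with the ADAR gRNA, so this p-value is not free of it. The 2 ECRs that reach past a gene's end were added after the data were seen. Libraries with the ADAR gRNA held only 2 to 8 edited reads of TYK2 ECR 1 and 1 to 10 of TYK2 ECR 2. Without ADAR replicate 2, TYK2 ECR 1 overlapped (highest with the gRNA 2.61%, lowest without 2.42%, exact permutation test p = 0.013). At a minimum of 20 reads only IFNAR2 ECR 1 kept usable sites.

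**Figure D4:**
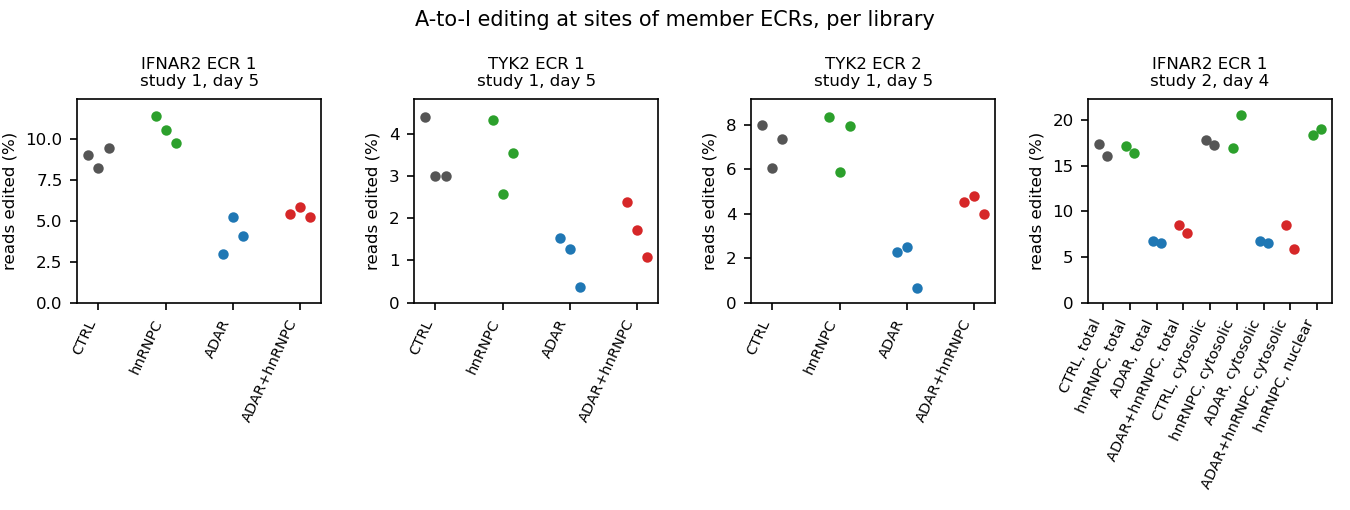
Percent of reads edited at the usable sites of 3 ECRs on day 5 of study 1 and of IFNAR2 ECR 1 in study 2, per library (points), by gRNA and, in study 2, RNA fraction. By the study's methods, sites were chosen by their editing in samples without ADAR targeting. Libraries with the ADAR gRNA (blue, red) lie below those without in each panel; for IFNAR2 ECR 1 of study 1 the highest with it is 5.85% and the lowest without is 8.21%.

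In the wild-type clone of study 2 both ligands were highest in the groups with the ADAR gRNA. IFNB1 in total RNA had 8 and 15 counts in CTRL, 14 and 11 in hnRNPC-, 83 and 65 in ADAR- and 165 and 116 in ADAR+hnRNPC-targeted cells. IFNL1 had 0 and 1, 0 and 8, 23 and 24, and 32 and 15 counts in the same groups. For IFNB1 the order of the 3 levels was kept without overlap, while the ADAR and ADAR+hnRNPC libraries of IFNL1 overlapped. In the model without the low-count filter IFNB1 was called in total RNA with the ADAR gRNA (2.57 ± 0.408 log2, edgeR adjusted p = 3.63e-08) and with both gRNAs (3.62 ± 0.4, adjusted p = 3.51e-17), and not with the hnRNPC gRNA (-0.07 ± 0.487, adjusted p = 1). In these comparisons 2.5%, 3.23% and 0.972% of genes with a count were called. In cytosolic RNA IFNB1 had 6 and 9 counts in CTRL, 65 and 95 in ADAR- and 184 and 162 in ADAR+hnRNPC-targeted cells, with log2 fold changes of 3.39 ± 0.434 (edgeR adjusted p = 7.17e-13, 3.02% of genes called) and 4.40 ± 0.425 (adjusted p = 6.81e-23, 5.32% called). IFNL1 was 44.1-fold (95% counting interval 7.54 to 1779) and 48.1-fold (8.22 to 1939) above CTRL cells in total RNA of ADAR- and ADAR+hnRNPC-targeted cells, a ratio against 1 count that covers counting error only. In cytosolic RNA, where CTRL cells had 0 counts, it was at least 15.6-fold and at least 16.7-fold higher by a floor of 3 counts over the group. SOCS1 had 3 to 30 counts per library of study 2 and was not called in these comparisons.

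IRF9 in total RNA of study 2 was at 3.86 and 3.23 CPM in CTRL, 5.71 and 4.14 in hnRNPC-, 7.82 and 4.84 in ADAR- and 11.3 and 9.98 in ADAR+hnRNPC-targeted cells. It was the 1 of 6 members called with both gRNAs, at 1.59 ± 0.241 log2 (edgeR adjusted p = 0.000186, 4.29% of genes called). With the ADAR gRNA alone IRF9 had a log2 fold change of 0.84 ± 0.241 (edgeR adjusted p = 0.0305), below the size of a call, while it was 1.14 and called without ADAR total replicate 2, and 0.45 without ADAR total replicate 1. STAT2 was at 104 and 79.9 CPM in CTRL and at 220.2 and 146 CPM with both gRNAs, a log2 fold change of 0.99 ± 0.21 (edgeR adjusted p = 0.00228) that fell short of a call by its size. It passed with relative log expression scaling (1.01) and by DESeq2 (1.01), without CTRL total replicate 1 (1.20) and without ADAR+hnRNPC total replicate 2 (1.26), while it was 0.66 without ADAR+hnRNPC total replicate 1. No member that passed the low-count filter was called in total RNA with the ADAR gRNA (2.93% of genes) or the hnRNPC gRNA (0.733%). In cytosolic RNA none of them was called with the ADAR (4.95% of genes), hnRNPC (0.484%) or both gRNAs (7.9%). STAT2 was nearest, at 84.2 and 73.2 CPM in CTRL and 180.4 and 127 CPM with both gRNAs, 0.96 ± 0.211 log2 (edgeR adjusted p = 0.00184), and it was called at 1.07 without CTRL cytosolic replicate 1 and at 1.20 without ADAR+hnRNPC cytosolic replicate 2. IFNAR1, IFNAR2, JAK1 and TYK2 gave 24 log2 fold changes from -0.53 to 0.2 in study 2, with 0 called and 1 at an adjusted p of at most 0.05, TYK2 in cytosolic RNA with both gRNAs (-0.42 ± 0.108, adjusted p = 0.00555).

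**Figure D5:**
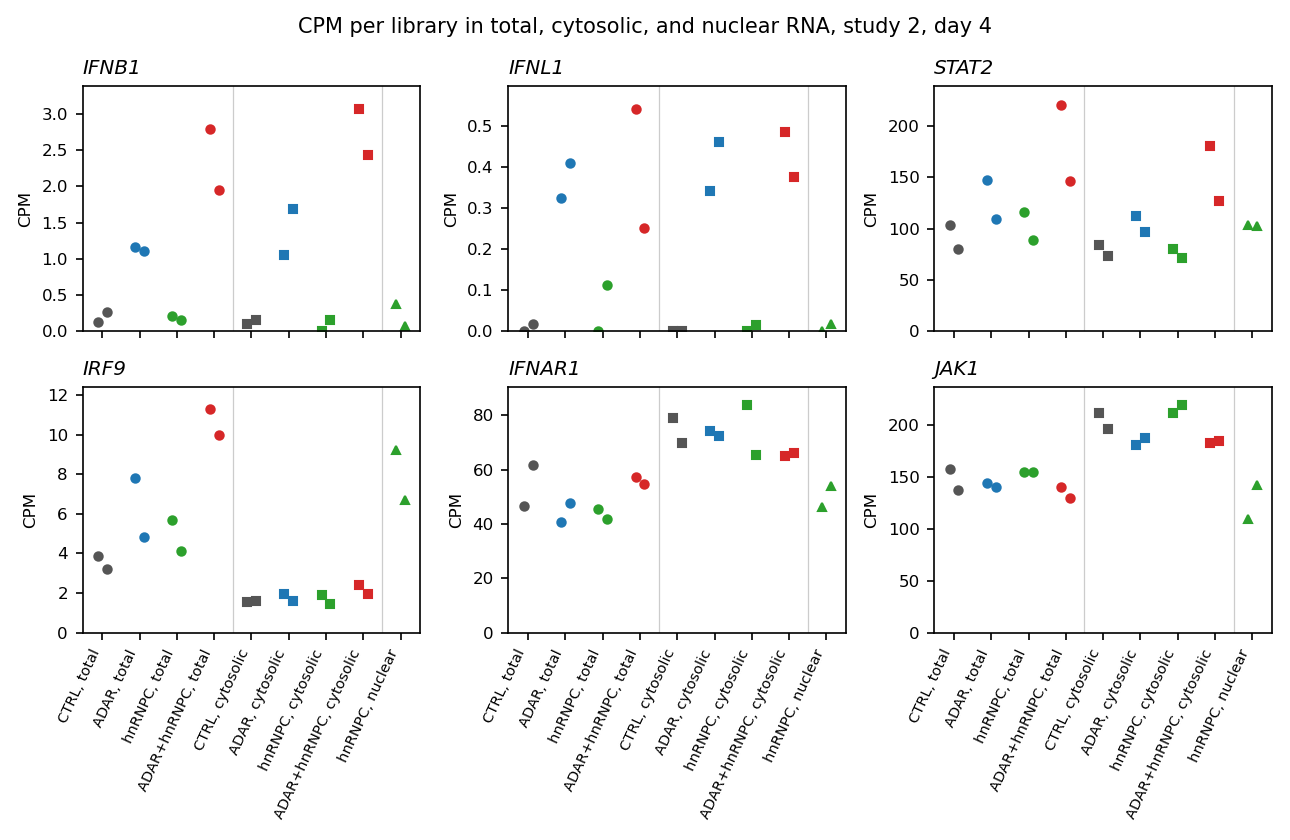
CPM of 6 members per library of study 2 (points) in total RNA (circles), cytosolic RNA (squares) and nuclear RNA (triangles), colored by gRNA. IRF9 stays at 1.46 to 2.42 CPM in every cytosolic library, below every total library, whereas IFNAR1 and JAK1 are higher in cytosolic than in total RNA.

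The fractions differed in marker RNA. Mitochondrial MT-ND1 was at 1.13 to 2.93 CPM in cytosolic, 29.8 to 156 CPM in total and 45.2 to 61.6 CPM in nuclear RNA, and nuclear MALAT1 at 377 to 940.0, 824 to 2723 and 2024 to 2265 CPM. Of the members that passed the low-count filter, only IRF9 was called between fractions. Cytosolic RNA held 1.53 and 1.6 CPM of IRF9 in CTRL, 1.94 and 1.6 in ADAR-, 1.88 and 1.46 in hnRNPC- and 2.42 and 1.95 in ADAR+hnRNPC-targeted cells, and nuclear RNA of hnRNPC-targeted cells held 9.24 and 6.71 CPM. Every cytosolic library was below every total library. Over the 4 gRNA groups IRF9 was lower in cytosolic than in total RNA by -1.72 ± 0.127 log2 (edgeR adjusted p = 3.64e-09), 1 of 6 members against 8.89% of genes called, and in hnRNPC-targeted cells lower in cytosolic than in nuclear RNA by -2.26 ± 0.256 (edgeR adjusted p = 7.81e-07), 1 of 6 members against 30.5%. The read-through gene at its locus was at 1.58 and 2.19 CPM in total and 0.308 and 0.575 CPM in cytosolic RNA of CTRL cells.

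The other 5 members that passed the low-count filter differed between fractions by less than the size of a call. Cytosolic against total RNA gave 0.55 ± 0.0723 log2 for IFNAR1, 0.44 ± 0.0593 for JAK1, -0.58 ± 0.0542 for TYK2 and -0.30 ± 0.104 for STAT2, with edgeR adjusted p of 3.41e-06, 4.13e-06, 6.68e-08 and 0.0148. Without the low-count filter, IFNB1 gave -0.31 ± 0.224 for cytosolic against total RNA (edgeR adjusted p = 0.338) and was called lower in cytosolic than in nuclear RNA of hnRNPC-targeted cells, at -1.46 ± 0.559 (edgeR adjusted p = 0.0324, where 17.4% of genes with a count were called). Its 0 and 10 cytosolic counts overlapped the 22 and 4 nuclear counts. The response of IRF9 to both gRNAs was 1.59 log2 in total and 0.48 ± 0.264 in cytosolic RNA (edgeR adjusted p = 0.153). The difference between these responses, a comparison added after the data were seen, was 1.10 ± 0.356 log2 (edgeR adjusted p = 0.102) and 0.03 for STAT2. The IRF9 difference passed by DESeq2 (adjusted p = 0.0459). With each of the 8 libraries left out in turn it ran from 0.95 to 1.26 and did not pass by edgeR. Editing of IFNAR2 ECR 1, over 40 of 44 sites, was 17.4 and 16.1% in CTRL, 17.1 and 16.4% in hnRNPC-, 6.78 and 6.58% in ADAR- and 8.52 and 7.66% in ADAR+hnRNPC-targeted cells in total RNA. It was 18.3 and 19% in nuclear and 16.9 and 20.5% in cytosolic RNA of hnRNPC-targeted cells.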

How the data were processed

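Per the study's methods and the labels, RNA was depleted of ribosomal RNA, made into stranded libraries and sequenced as paired ends. The authors aligned reads to GRCh37 with STAR 2.5.4a and counted uniquely mapped pairs over exons of genes, introns and editing cluster regions with featureCounts. The strand setting was not given in the sources used here, so antisense and overlapping genes may share reads. The deposited values were raw counts per gene, intron or region, and edited and total read counts per editing site. The filters, the scaling and the thresholds of a call followed the study's methods.

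Counts were fitted with edgeR 4.0.16 (quasi-likelihood test, trimmed mean of M-values, Benjamini-Hochberg adjustment over all features tested) in R 4.3.3, 1 model per study with every group as a level, and 1 model per day for the interaction. Features entered at an average log2 CPM (counts scaled to library size), over all libraries of a study, of at least 0.5 for genes, 1 for introns and 4.5 for editing cluster regions. Library sizes in every fit and printed CPM came from gene counts. The average for editing cluster regions was taken over the summed counts of those regions alone, so their printed CPM lies below that filter. Of the 9 members, 6 passed. Intervals cover counting error only, and floors (3 counts over a group) cover that of the CTRL group only. Exact permutation tests were run in Python 3.11.15 with scipy 1.17.1. Percent edited was the sum of edited over the sum of total reads at sites with at least 10 reads in every library. Alternatives were limma-voom (limma 3.58.1), DESeq2 1.42.0, relative log expression scaling, other filters, GFP-targeted cells as control, a replicate block and libraries left out. The scripts were tested on simulated data. Genes named were the members, the called genes of the pathway lists and the 3 genes most correlated with a called member. Members and lists were chosen with earlier results of these data known. Exon lengths and overlaps came from an annotation newer than the one used for counting. The fifth marker list of other cell types is not reported here.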

Additional observations from a re-analysis of the deposited data

Results flagged for a closer look

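For both ISGF3 subunits the response to the ADAR gRNA on day 5 differed between cells with and without the hnRNPC gRNA, by the test of the interaction itself. STAT2 had an interaction of 2.60 log2 (edgeR adjusted p = 3.84e-08), and its 3 ADAR+hnRNPC libraries, at 457 to 685 CPM, lay above all ADAR-targeted libraries of that day, at 101 to 111 CPM. IRF9 had an interaction of 2.00 log2 (edgeR adjusted p = 3.08e-06), with 14.9 to 17.6 CPM in ADAR+hnRNPC-targeted and 2.79 to 3.65 CPM in ADAR-targeted cells. On that day 48.4% of all genes passed the same test, which carries no size threshold.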

How the results depend on the processing

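The calls of STAT2 and IRF9 in study 1 held under every alternative run, at 1.68 to 1.81 and 2.36 to 2.85 log2 after IFN-α, 2.28 to 2.59 and 2.72 to 2.97 with both gRNAs at day 5, and 2.41 to 2.72 and 1.87 to 2.12 for the interaction of day 5. Of counts and tests other than those with a library left out, 163 stayed and 24 moved by over 1.5 times. With no low-count filter IFNB1, IFNL1 and SOCS1 entered, and members called became 1 in ADAR-targeted cells of day 5, 1 and 2 in hnRNPC-targeted cells of days 3 and 5, 1, 4 and 5 with both gRNAs at days 3, 4 and 5, 4 and 5 between days 3 and 4 and days 4 and 5, and 4 each in the interactions of days 4 and 5. These include fits against CTRL groups at 0 counts, whose folds depend on the prior count. Of all genes with a count, the same setting called 0.284% in ADAR- and 6.75% in hnRNPC-targeted cells of day 5. It called 4.7% and 11.6% with both gRNAs at days 4 and 5, and 2.66% and 15.8% in the interactions of those days. Shares for day 3 and between days are not given for this setting. In study 2 dropping that filter gave 2 with the ADAR gRNA (2.5% of genes with a count) and 3 with both (3.23%) in total RNA. It gave 2 each in cytosolic RNA (3.02% and 5.32%), and 2 (IRF9 and IFNB1) for cytosolic against nuclear RNA (17.4%). The interaction of day 4 had 1 member called in the model of all 48 libraries and 1 by DESeq2, and 0 to 1 with a library left out. Both gRNAs in total RNA of study 2 gave 2 members with relative log expression scaling and 2 by DESeq2, and 1 to 2 with a library left out, while the ADAR gRNA in total and both gRNAs in cytosolic RNA each gave 0 to 1. A filter higher by 1 log2 CPM left 1 member intron called after IFN-α and 1 with both gRNAs at day 5, and 0 and 0 editing cluster regions, since fewer were tested. The day 3 difference of IFNB1 ran from 0.0126 to 0.0252 CPM with a library left out.

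Same-numbered libraries deviated together, at a correlation over 0.1, in 220 of 360 pairs of study 1 and 44 of 72 of study 2, and in 16 of 18 pairs of the groups in the day 4 interaction (median 0.373, against -0.234 for other numbers). Not every pair did and the labels tie no number to an experiment, so the numbers were not taken to pair the samples. With a replicate block the interaction of day 4 had 3 members called, TYK2, STAT2 (adjusted p = 0.00301) and IRF9 (0.95, adjusted p = 0.0113), and the IRF9 difference between compartments passed (1.12, adjusted p = 0.0137). The block moved no other count of calls by over 1.5 times. Low counts limit IFNB1, IFNL1 and SOCS1 outside ADAR+hnRNPC-targeted cells, and 2 libraries per group limit study 2.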
